A study of Mus musculus with 28 samples.

Results

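The 10 genes described here encode chaperones and folding enzymes of the endoplasmic reticulum (ER) and components of the unfolded protein response (UPR): Hspa5, Hsp90b1, Pdia4, Calr, Dnajb9, Sdf2l1, Creld2, Herpud1, Edem1 and Xbp1. They were chosen by name, as the array's gene names give them, and are 10 of the 21849 genes tested, measured by 16 of the 41174 probes on the array. All 16 probes passed the filter on dim probes. Gene expression was measured on 28 one-colour Agilent arrays, each with total RNA from the liver of 1 male mouse of the strain labelled C57/6J, aged 33 weeks. From 7 weeks of age the mice had been kept for 26 weeks on a standard diet (SD, n = 5), a high-fat diet (HFD, n = 6), the high-fat diet with 0.4% quercetin (HQ, n = 5), the high-fat diet with 0.4% resveratrol (HR, n = 6), or the high-fat diet with 0.2% of each compound (HQR, n = 6). Quercetin is a plant flavonol and resveratrol a plant stilbene. The doses were 4 g of a compound per kg of diet in HQ and HR, and 2 g of each in HQR. All animals were male and of 1 strain and 1 age, and whole liver was used, so that fewer cells of a type and less RNA per cell cannot be told apart.

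The ER is where secreted and membrane proteins fold, and the hepatocyte, which secretes most plasma proteins, is rich in it. When unfolded proteins accumulate, the sensors ATF6, IRE1 and PERK signal to the nucleus. ATF6 and the spliced form of XBP1 then raise the transcription of chaperones and of the degradation machinery, and PERK slows translation and induces ATF4. HSPA5 (BiP) is the main Hsp70 chaperone of the ER lumen and also holds the sensors inactive, and its mRNA is a standard readout of the response.

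The promoters of these genes are shown because the shared response runs through short DNA elements in them. The ER stress response element (ERSE: the box CCAAT, 9 bases of any kind, then the box CCACG) was searched on both strands in the RefSeq promoters of build GRCm38.p6, each holding 250 bases before and 50 bases after the gene's start. It was present in 4 of the 10 genes, Hspa5, Hsp90b1, Calr and Creld2, and in 37 of all 27025 genes with a promoter in the table (0.137%). Herpud1 carried the related ERSE-II (ATTGG, 1 base of any kind, then CCACG), found in 12 of the 27025 genes (0.0444%). The UPR element TGACGTGG was present in 193 genes (0.714%) and in 0 of the 10. None of the 10 held both elements, so their matches do not overlap, and the absence of a match says only that the letters are not in this window. The 220 bases directly before the start of the 5 genes with a match read as follows on the gene's strand, 5′ to 3′, with the matches in capitals; Hsp90b1 holds 1 match in each orientation, the matches of Calr and Creld2 are in the reverse orientation (CGTGG first), and those of Hspa5 and Herpud1 run forward.
Hspa5: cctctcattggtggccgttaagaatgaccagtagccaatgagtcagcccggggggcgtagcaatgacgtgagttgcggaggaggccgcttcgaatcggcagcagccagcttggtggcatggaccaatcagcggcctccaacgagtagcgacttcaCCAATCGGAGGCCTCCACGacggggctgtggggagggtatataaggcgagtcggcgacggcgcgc
Hsp90b1: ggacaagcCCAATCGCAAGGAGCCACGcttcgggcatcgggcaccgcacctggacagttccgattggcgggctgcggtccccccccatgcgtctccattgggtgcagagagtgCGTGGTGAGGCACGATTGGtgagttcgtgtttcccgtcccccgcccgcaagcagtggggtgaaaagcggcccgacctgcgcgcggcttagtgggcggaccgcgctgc
Calr: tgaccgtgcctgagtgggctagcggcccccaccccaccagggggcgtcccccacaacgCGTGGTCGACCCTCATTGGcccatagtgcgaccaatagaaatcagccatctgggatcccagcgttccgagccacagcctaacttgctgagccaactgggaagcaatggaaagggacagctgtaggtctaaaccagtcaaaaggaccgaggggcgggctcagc
Creld2: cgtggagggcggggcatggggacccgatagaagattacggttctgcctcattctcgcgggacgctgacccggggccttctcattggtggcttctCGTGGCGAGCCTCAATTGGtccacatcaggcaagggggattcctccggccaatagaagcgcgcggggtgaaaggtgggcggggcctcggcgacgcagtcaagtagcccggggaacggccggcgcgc
Herpud1: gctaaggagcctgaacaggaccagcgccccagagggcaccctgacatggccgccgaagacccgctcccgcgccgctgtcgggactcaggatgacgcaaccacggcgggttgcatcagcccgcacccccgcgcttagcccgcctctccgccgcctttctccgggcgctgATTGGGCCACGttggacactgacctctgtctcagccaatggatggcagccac
The windows are chr2:34771870-34772089 on the plus strand for Hspa5, chr10:86705445-86705664 on the minus strand for Hsp90b1, chr8:84846932-84847151 on the minus strand for Calr, chr15:88819426-88819645 on the plus strand for Creld2 and chr8:94386209-94386428 on the plus strand for Herpud1. The ERSE of Hspa5 began 65 bases before the start site, and the ERSE-II of Herpud1 began 52 bases before it. The matches of Creld2 and Calr began 126 and 162 bases before it, and those of Hsp90b1 began 212 and 107 bases before it.

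None of the 10 genes passed an adjusted p of 0.05 in any comparison of diets. Levels are given as log2 signal relative to each array's 75th percentile, and tests come from limma with Benjamini-Hochberg adjustment over all 21849 genes. For HFD against SD, 0 of 10 were called, against 0.114% of all genes. For HQ, HR and HQR against HFD, 0 of 10 were called each time, against 0%, 0.00915% and 0% of all genes. For HQ against HR the count was 0 of 10, against 0%. Against SD, 0 of 10 were called for HQ (0.0366% of all genes), HR (0.0549%) and HQR (0.0503%). The mean of the 4 high-fat groups against SD called 0 of 10 (0.160%), the mean of the 3 supplemented groups against HFD 0 of 10 (0.00458%), and the F test over the 5 groups 0 of 10 (0.105%). At an unadjusted p under 0.05, limma listed 3 of the 10 genes for HQR against SD (6.43% of all genes) and 1 for HQR against HFD (1.36%). It listed 1 for the mean of the 4 high-fat groups against SD (7.19%), 1 for the mean of the 3 supplemented groups against HFD (3.42%), and 0 in the F test (3.96%). The count was also 0 for HFD (6.14%), HQ (3.91%) and HR (5.72%) against SD, for HQ (2.13%) and HR (4.92%) against HFD, and for HQ against HR (1.29%). The 3 genes for HQR against SD were Herpud1, Xbp1 and Edem1, each by the probe standing for it. There the other Edem1 probes gave limma unadjusted p = 0.389 and 0.942, and the other Hsp90b1 probe gave 0.0357, so the count depends on the probe. With so few calls among all genes, a count of 0 adjusted calls among 10 is near the background. The comparisons against HFD share the HFD livers, and those against SD share the SD livers.

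**Figure D1:**
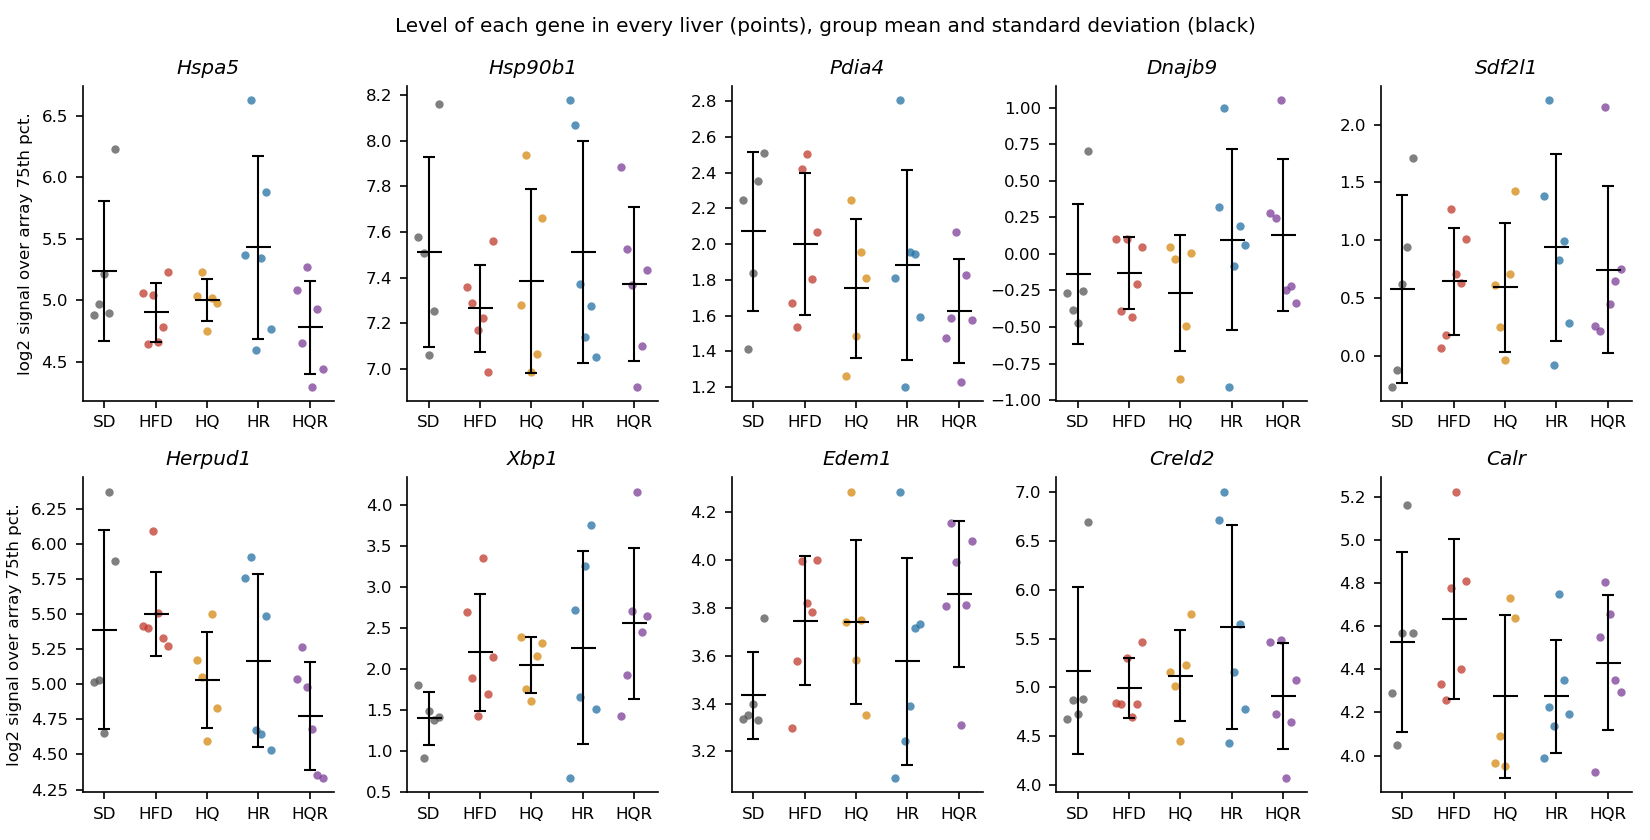
Level of each of the 10 genes (y axis, log2 signal relative to the array's 75th percentile, with its own range in each panel) in every liver (points) of the 5 diet groups (x axis), with group mean and standard deviation in black. The groups overlap in each panel except HQR and HFD for Herpud1, and single livers such as SD 5 and HR 2 stand high in several panels.

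Among the lumenal chaperones, Hspa5 was probed at chr2:34631630-34631689 (mm9). Its level in the SD livers 1 to 5 was 4.88, 4.97, 5.21, 4.90 and 6.23, and in HQ 5.03, 5.23, 4.75, 5.02 and 4.98. In HFD it ran from 4.65 to 5.23 (median 4.91), in HR from 4.60 to 6.63 (median 5.36) and in HQR from 4.30 to 5.28 (median 4.79). The highest livers were HR 2 and SD 5, and all groups overlapped. HFD differed from SD by -0.33 ± 0.28 (standard error; 95% interval -0.92 to 0.25, adjusted p = 0.958 in limma). Without SD 5 that difference was -0.09. HR minus HFD was 0.53 ± 0.27 (interval -0.03 to 1.08, limma adjusted p = 1.00), and 0.29 without HR 2. With slide as a block it was 0.65 ± 0.29 (limma unadjusted p = 0.0348, adjusted p = 0.427).

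Hsp90b1 (GRP94, the ER Hsp90, which folds a limited set of secreted and membrane clients) had group means between 7.26 ± 0.19 (standard deviation, n = 6) in HFD and 7.51 ± 0.49 (standard deviation, n = 6) in HR, and the mean on the standard diet was 7.51 ± 0.42 (n = 5). Here and below the error of a group mean is the standard deviation, and that of a difference is the standard error. Its 3 highest livers were HR 1 (8.18), SD 5 (8.16) and HR 2 (8.07). Its differences in the 5 comparisons of HFD with SD, of the supplements with HFD and of HQ with HR lay between -0.25 and 0.25. The probe of these values stands at chr10:86161329-86161388 (mm9), and its levels correlated with those of the other Hsp90b1 probe at r = 0.29 over 28 arrays. That other probe gave -0.25 for HQR minus HFD and -0.06 for HQ minus HFD, against 0.11 and 0.12. In the rest of the 5 comparisons the signs were the same. For HQR minus SD it gave -0.43 (limma unadjusted p = 0.0357) against -0.14, and its smallest limma adjusted p was 0.746. Pdia4 (ERp72, a protein disulfide isomerase; chr6:47746516-47746575) had its highest mean in SD (2.07 ± 0.45, n = 5) and its lowest in HQR (1.63 ± 0.29, n = 6). HQR minus HFD was -0.37 for Pdia4, with an interval of -0.87 to 0.12. Calr (calreticulin, the lectin chaperone of newly made glycoproteins; chr8:87366192-87366251) averaged 4.63 ± 0.37 in HFD (n = 6) against 4.27 ± 0.38 in HQ (n = 5) and 4.27 ± 0.26 in HR (n = 6). HR minus HFD was -0.36 for Calr (interval -0.78 to 0.06), and -0.42 ± 0.16 with slide as a block (limma unadjusted p = 0.0148, adjusted p = 0.372). The other Calr probe, at transcript position 719, gave 0.40 for the same comparison and did not follow the first over the 28 arrays (r = -0.07), so the direction for Calr depends on the probe.

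The cochaperones and the smaller lumenal proteins spread more widely between livers than between diets. Dnajb9 (ERdj4, an Hsp40 cochaperone of HSPA5; chr12:45307909-45307968) averaged -0.13 ± 0.48 in SD (n = 5), -0.13 ± 0.25 in HFD (n = 6), -0.27 ± 0.40 in HQ (n = 5), 0.10 ± 0.62 in HR (n = 6) and 0.13 ± 0.52 in HQR (n = 6). Its highest livers were HQR 3 (1.05), HR 2 (1.00) and SD 5 (0.70), which come from 3 diets. Sdf2l1, which works with HSPA5 cochaperones in the lumen (chr16:17130426-17130485), read -0.26, -0.12, 0.62, 0.95 and 1.71 in the SD livers 1 to 5. It ran from 0.07 to 1.27 in HFD, from -0.04 to 1.43 in HQ, from -0.07 to 2.21 in HR and from 0.22 to 2.15 in HQR. The groups overlapped almost fully, and HFD minus SD was 0.07 with an interval of -0.75 to 0.88. Creld2, an ER-resident protein induced by ER stress (chr15:88656997-88657056), read 4.68, 4.87, 4.73, 4.88 and 6.69 in the SD livers, and from 4.44 to 7.00 (median 5.40) in HR against 4.70 to 5.46 (median 4.83) in HFD. SD 5, HR 1 (6.72) and HR 2 stood apart, and the other 4 SD livers read at most 4.88. HR minus HFD was 0.63 ± 0.39 for Creld2 (interval -0.16 to 1.42, limma adjusted p = 1.00), 0.35 without HR 2 and 0.41 without HR 1. Each of these last values keeps the other high HR liver. The HR livers 3 to 6 read 4.44, 5.16, 5.65 and 4.78, close to the HFD range, so the difference rests on HR 1 and HR 2. HFD minus SD was -0.18 for Creld2 and 0.20 without SD 5, so its sign rests on that liver.

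In the degradation arm, Herpud1 gave the only pair of diet groups without overlap among the 10 genes, HQR and HFD; 0.0915% of all genes had no overlap between these 2 groups, and 3.16% had none in at least 1 of the 10 pairs of groups. HERPUD1 is a membrane protein of the ER that helps assemble the complex through which misfolded proteins are moved out for degradation (probe at chr8:96919117-96919176). Its level ran from 5.28 to 6.09 in HFD (median 5.41) and from 4.33 to 5.26 in HQR (median 4.83), so that every HQR liver lay below every HFD liver. In SD it read 5.02, 5.03, 4.65, 6.38 and 5.88, in HQ 5.17, 5.05, 4.60, 5.50 and 4.83, and in HR from 4.54 to 5.91. HQR minus HFD was -0.73 ± 0.28 (a ratio of 0.603; interval -1.30 to -0.16, limma unadjusted p = 0.0147, adjusted p = 0.987), which did not pass. Taken slide by slide, over the 4 slides with HQR and HFD arrays, it ran from -1.11 to -0.38. The mean of the 3 supplemented groups minus HFD was -0.51 ± 0.23 (limma unadjusted p = 0.0346, adjusted p = 0.997), and HQR minus SD was -0.62 ± 0.29 (limma unadjusted p = 0.0450, adjusted p = 0.769) and -0.37 without SD 4. Edem1, a lectin that routes misfolded glycoproteins to degradation (chr6:108808920-108808979), read 3.34, 3.35, 3.40, 3.33 and 3.76 in SD. Its mean was 3.75 ± 0.27 in HFD (n = 6), 3.74 ± 0.34 in HQ (n = 5), 3.58 ± 0.43 in HR (n = 6) and 3.86 ± 0.30 in HQR (n = 6). HFD minus SD was 0.31 ± 0.20 for this probe (interval -0.10 to 0.73), while the other Edem1 probes gave -0.25 and -0.15, so no direction holds over the gene's probes. HQR minus SD was 0.42 ± 0.20 for this probe (limma unadjusted p = 0.0464, adjusted p = 0.769), and the other probes gave -0.18 and 0.02.

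Xbp1 encodes the transcription factor that IRE1 activates by splicing its mRNA, and in liver it also serves lipid synthesis. Its probe (chr11:5424970-5425029, transcript position 894) lies downstream of the spliced intron and cannot tell the spliced from the unspliced mRNA. Xbp1 read 1.81, 0.91, 1.48, 1.38 and 1.41 in the SD livers 1 to 5 and 2.39, 1.76, 1.61, 2.17 and 2.32 in HQ. It ran from 1.43 to 3.36 (median 2.02) in HFD, from 0.67 to 3.75 (median 2.19) in HR and from 1.43 to 4.16 (median 2.56) in HQR. The SD livers were low and close together, and the high-fat livers reached from below the SD range (HR 1, 0.67) to well above it. HFD minus SD was 0.80 ± 0.46 (interval -0.14 to 1.75, a ratio of 1.74, limma adjusted p = 0.890), and was above 0 in 4 of 4 slides with both groups, from 0.05 to 0.98. HQR minus SD was 1.16 ± 0.46 (interval 0.21 to 2.10, limma unadjusted p = 0.0183, adjusted p = 0.602), and 0.84 without HQR 4. It was above 0 in 2 of 3 slides with both groups, from -0.38 to 1.33. The mean of the 4 high-fat groups minus SD was 0.87 ± 0.38 (interval 0.10 to 1.64, limma unadjusted p = 0.0287, adjusted p = 0.593). Over 42 alternative settings that last difference stayed between 0.75 and 1.07, with adjusted p from 0.150 to 1.00.

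**Figure D2:**
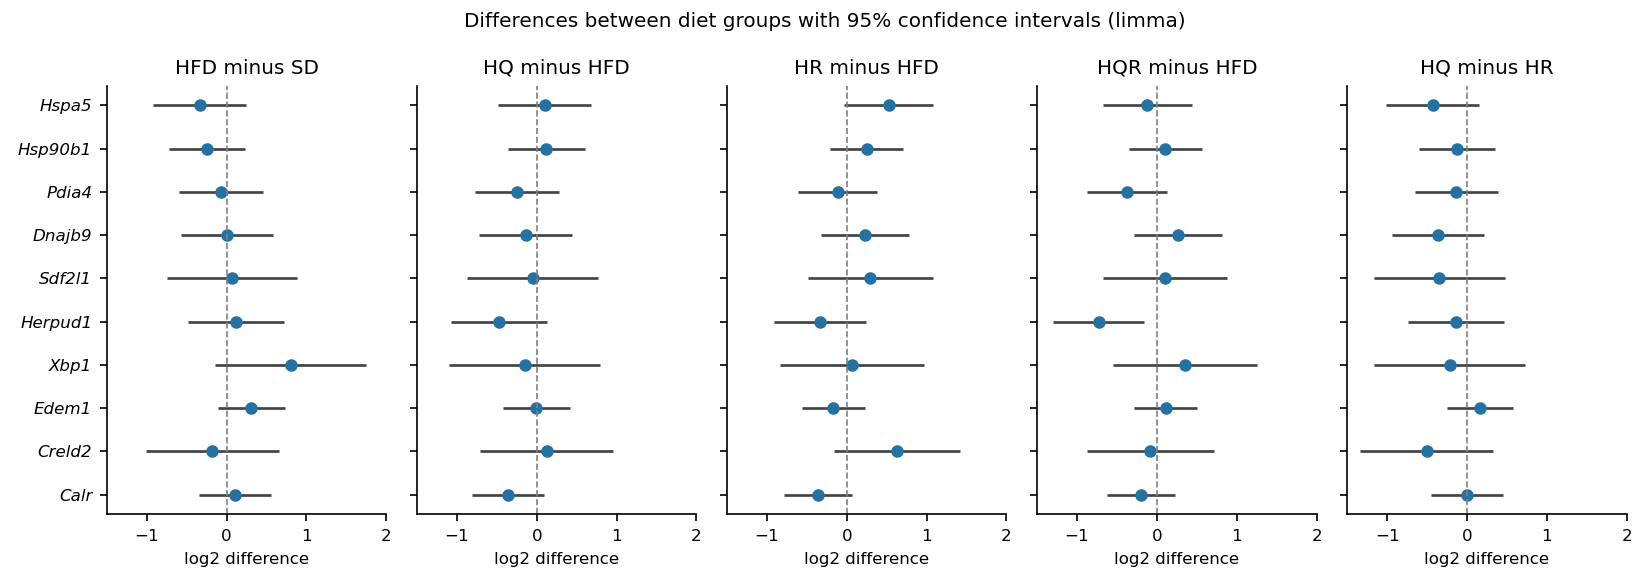
Log2 difference (x axis, points) and 95% confidence interval (bars) from limma for the 10 genes (y axis) in 5 comparisons of diets. The interval of Herpud1 for HQR minus HFD, -1.30 to -0.16, is the only one drawn that leaves out 0.

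Quercetin and resveratrol, which differ in their carbon skeleton (a flavonol and a stilbene), were fed alone at the same dose of 0.4%, so 1 pair of diets compares them directly. HQ minus HR was below 0 for 8 of the 10 genes, from -0.50 for Creld2 to 0.17 for Edem1, with a median of -0.18 against -0.01 over all genes. That median was -0.04 with slide as a fixed block, -0.05 with scan day as one and -0.16 with slide as a random block. It was -0.24 with replicate number as a block and -0.48 with array weights. For Hspa5 the difference was -0.43 (interval -1.01 to 0.16, limma adjusted p = 1.00) and for Creld2 -0.50 (interval -1.34 to 0.33). The Calr difference was 0.00 with an interval of -0.45 to 0.45. The other Calr probe gave -0.30, and the other Edem1 probes gave -0.14 and 0.05, so these values depend on the probe. All 10 intervals contain 0, and none shows that the compounds act alike. HR 2 was the highest HR liver for both Hspa5 and Creld2. The mixed diet held a lower dose of each compound, and its values stand beside the others without a comparison: Hspa5 averaged 5.00 in HQ, 5.43 in HR and 4.78 in HQR.

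The share of the variation that went with diet differed between the 10 genes. The group explained between 4.44% (Sdf2l1) and 25.9% (Herpud1) of the variance over the 28 livers, against a median of 10.1% over all genes. Only Sdf2l1 and Hsp90b1 (7.22%) lay below that median, and Hspa5 (23.6%), Xbp1 (21.2%) and Edem1 (20.3%) came next to Herpud1. The slide explained 18.6% to 60.9% against a median of 51.2%. For Hspa5 (18.6%), Herpud1 (24.4%) and Edem1 (18.6%) the slide's share was below that of diet. Both shares grow with the number of groups or slides. Xbp1 varied most of the 10, with a standard deviation of 0.83 over the 28 livers, above that of 87.9% of genes, and Edem1 least, with one of 0.33. The largest spread in a diet group was that of Xbp1 and Creld2 in HR, with standard deviations of 1.18 and 1.04.

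Levels of many of the genes were correlated across livers. Over the 45 pairs, Pearson's r was above 0 in 38, with a median of 0.36. In a two-sided permutation test (100000 permutations), 17 pairs passed an adjusted p of 0.05 over the 45 pairs, and all 17 were positive. The share of all gene pairs on the array that would pass was not computed. The permutations also ignore the slide, which explained a median of 51.2% of the variance over all genes. Hspa5 and Creld2 gave the highest value, r = 0.84 and Spearman's rho = 0.77, with a permutation p of 1e-05, the smallest these permutations can give (adjusted p = 0.000225). Their r was 0.67 without SD 5 and HR 2, the livers farthest from the median of Hspa5, and 0.82 over the 27 livers on shared slides after subtracting slide means (adjusted p = 0.00333 when permuted within slides). Creld2 also followed Sdf2l1 (r = 0.77, rho = 0.75, permutation adjusted p = 0.000225), Hsp90b1 (r = 0.76, rho = 0.57, permutation adjusted p = 0.000225) and Dnajb9 (r = 0.74, rho = 0.69, permutation adjusted p = 0.00027). Without the 2 livers farthest from the median of Sdf2l1, Hsp90b1 or Dnajb9, r with Creld2 was 0.75, 0.62 and 0.71. For Hsp90b1 these were SD 5 and HR 1, so that HR 2 was kept. Without SD 5, HR 1 and HR 2, picked after their values were seen, r with Creld2 was 0.64, 0.44 and 0.59. Dnajb9 and Sdf2l1 gave r = 0.74 (rho = 0.53), and 0.87 within slides.

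Xbp1 and Edem1 had 0 of 9 partners past the threshold, and Calr had 1, Pdia4 (r = 0.51, rho = 0.56, permutation adjusted p = 0.0201). These values belong to the probe that stands for each gene. The other Calr probe gave r = -0.07 with it, the other Edem1 probes 0.52 and 0.11, and the other Hsp90b1 probe 0.29. Whether the low counts of Calr and Edem1, or the correlations of Hsp90b1, hold for their other probes was not tested. For Xbp1, r ran from -0.33 with Hsp90b1 to 0.35 with Calr, with a median of 0.03. Hspa5, Pdia4 and Creld2 had 6 partners each. After subtracting slide means and permuting within slides, 8 of the 45 pairs passed, all of them among the 17, and with both diet and slide fitted out the median r was 0.44. Without SD 5, HR 1 and HR 2 together, 7 of the 45 pairs passed. These 3 livers were picked after their values were seen, and no other 3 were left out together for comparison. How much of the correlation rests on them was therefore not tested. The count also depended on the scaling, with 30 pairs after scaling to the array median and 31 after normexp background correction.

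**Figure D3:**
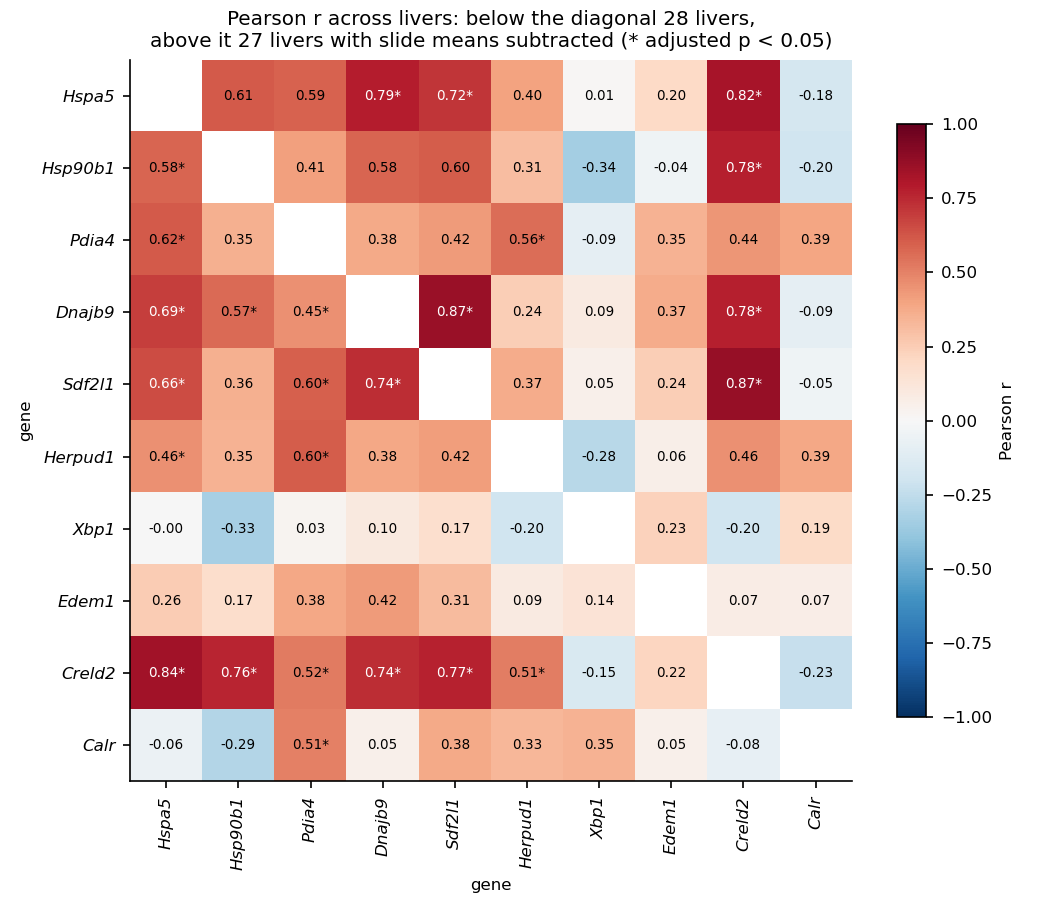
Pearson r between each pair of the 10 genes (both axes), over 28 livers below the diagonal and over 27 livers with slide means subtracted above it; asterisks mark an adjusted p under 0.05 by permutation. Creld2, Hspa5, Dnajb9 and Sdf2l1 form the block of high values, up to 0.84 below the diagonal, and the row and column of Xbp1 hold no asterisk.

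The livers that were high for many of the genes came from different diets. HR 2 was the highest of the 28 livers for 5 genes and among the 3 highest for 8, with Creld2 at 3.15 times and Sdf2l1 at 2.88 times the mean of the other 5 HR livers (geometric means). SD 5 was among the 3 highest for 6 genes, with Creld2 at 3.74 times and Hspa5 at 2.37 times the other 4 SD livers, while its Xbp1 (1.41) and Calr (4.57) were close to theirs. HR 3 was among the 3 lowest for 6 genes, including Hspa5 (4.60) and Dnajb9 (-0.91). HQR 4 was among the 3 lowest for 4 genes and the highest of all for Xbp1 (4.16). HQ 3 lay at or below the 28-liver median for all 10 genes.

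**Figure D4:**
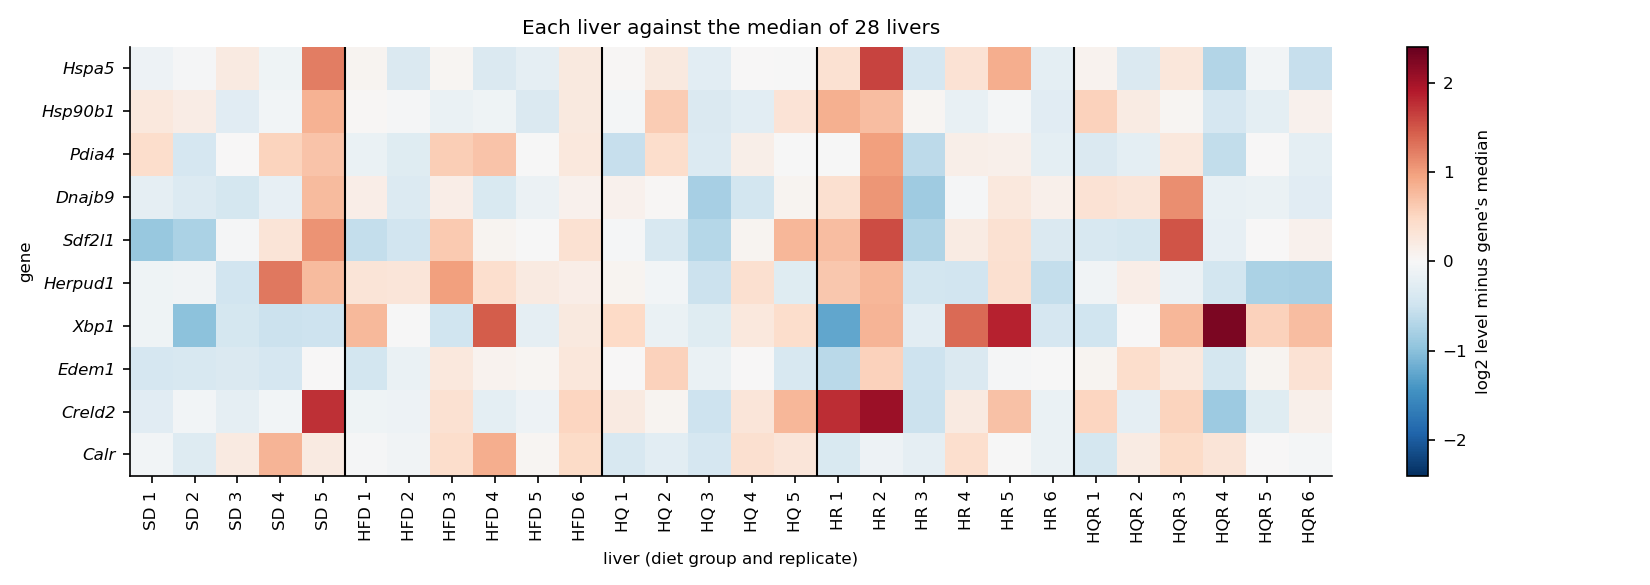
Level of each gene (rows) in every liver (columns, grouped by diet) as the difference from that gene's median over 28 livers (colour, log2). SD 5 and HR 2 are red for Hspa5, Hsp90b1, Dnajb9, Sdf2l1 and Creld2, and Xbp1 is highest in HQR 4.

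Markers of other cell types were read in the same livers. Of 8 pancreatic acinar markers 6 were kept and only Ctrb1 and Cel were well above background on all arrays. Pnlip was so on 5 arrays and Prss2 on 7. The summed linear levels of all 6 kept markers ran from 0.888 to 1.29 in SD and 0.695 to 2.09 in HFD. They ran from 0.609 to 11.8 in HQ, 0.7495 to 1.27 in HR and 0.669 to 1.87 in HQR. By this sum HR 2 and SD 5 ranked 14 and 15 of 28. Of 6 plasma cell markers Jchain, Sdc1 and Mzb1 were kept, with sums of 2.21 to 4.38 in SD, 1.68 to 6.82 in HFD, 1.72 to 3.75 in HQ, 1.69 to 6.04 in HR and 1.63 to 4.29 in HQR, and HR 2 and SD 5 ranked 23 and 8. Hepatocyte markers (6 of 7 kept, all well above background on all arrays) ranked 24 in HR 2 and 6 in SD 5. HR 1 ranked highest of the 28 for the adipocyte and stellate cell markers and second for the Kupffer and bile duct cell markers. For the sinusoidal endothelial markers HR 2, HR 1 and SD 5 ranked 2, 3 and 26. No marker passed the threshold in a comparison of diets, and the part of these cells in the liver-to-liver pattern was not tested.

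The genes most like the 10 were found by correlating each of 21654 other genes with the mean of the 10 standardised genes over 27 livers, slide means subtracted. This is a description of livers that share slides. Manf (r = 0.90), a secreted ER stress protein, Dnajb11 (r = 0.90), an Hsp40 cochaperone of HSPA5, Prrt2 (r = 0.84), Pdia6 (r = 0.79), a disulfide isomerase, and the transcript AK050250 (r = 0.79) ranked 1 to 5. Manf read 4.02 in HR 2 and 1.61 to 3.69 in the other 27 livers, and Dnajb11 read 5.00 in HR 2 and 4.96 in SD 5, with the others down to 3.37. Prrt2 read -0.22 in HR 2 and at most -3.00 elsewhere. Muscle genes chosen after their values were seen followed it in HR 2, with Myh8 at 1.44 against at most -2.17 and Tnnc2 at 0.71 against at most -1.48, but Ckm (-3.99, others up to -3.55) and Acta1 (-1.97, others up to -0.16) did not exceed the other livers. Without HR 2, Manf and Dnajb11 again ranked 1 and 2 (r = 0.80 each), Pdia6 ranked 18 and Prrt2 22. Without SD 5, HR 1 and HR 2 together, Manf ranked 1 (r = 0.80), Dnajb11 20 and Pdia6 340.

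The same promoter elements were present in some of these genes. Of 33 other genes with an ERSE in the promoter table, 18 were measured. Of all 21654 genes outside the 10, 12192 had an r above 0 with the mean of the 10. Among the 18 with an ERSE, 14 were above 0, and the median r was 0.22, against 0.04 over all genes. Pdia6 (0.79), Dnajc3 (0.65), an HSPA5 cochaperone, and Syvn1 (0.61), the ubiquitin ligase of ER degradation, led them, while Ero1b (-0.13) was lowest. Dnajb11 carried an ERSE-II, as Herpud1 did, and the 8 measured genes with that element had a median r of -0.10. For the UPR element, 134 other genes were measured, with a median r of 0.06 and 77 above 0. The forward ERSE of Pdia6 lies in chr12:17266481-17266519 (GRCm38.p6, plus strand), with the match again in capitals and 10 bases on either side.
Pdia6: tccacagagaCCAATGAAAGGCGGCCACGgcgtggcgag

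Each of the 10 was also set against the mean of the other 9, among 21655 genes. Dnajb9 and Sdf2l1 ranked 5, Hspa5 6, Creld2 11 and Pdia4 27. Hsp90b1 ranked 151 and Herpud1 329. Edem1 ranked 2971, Calr 10549 and Xbp1 14503. Each rank is that of the probe standing for the gene, and the probes of Calr, like those of Edem1 and Hsp90b1, did not follow each other closely. With diet and slide fitted out, the highest values of Edem1 were r = 0.64 with Pdia4 and 0.50 with Hspa5, and the lowest was 0.05 with Xbp1. These values were not tested.

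Other genes of the pathway were read from 4 lists. Of 23 further ER folding genes, 24 genes of ER degradation and translocation, and 14 genes of the UPR sensors and their processing, 0 passed in either direction in any of the 10 comparisons, and in HFD minus SD their medians were -0.04, 0.04 and -0.07, against -0.04 over all genes. The 2 genes of each list with the smallest F test p were Erp44 and Fkbp11, Ssr3 and Sec61a1, and Eif2ak3 (the gene of PERK) and Bax, and their smallest limma adjusted p in that test was 0.398, for Ssr3. Ssr3, a subunit of the translocon-associated complex, averaged 5.02 ± 0.31 in HFD (n = 6), 4.44 ± 0.35 in HQ (n = 5), 4.22 ± 0.36 in HR (n = 6) and 5.05 ± 0.31 in HQR (n = 6). Sec61a1, the pore of the translocon, averaged 5.64 ± 0.30 in HFD, 5.22 ± 0.36 in HQ, 5.03 ± 0.36 in HR and 5.82 ± 0.22 in HQR. For Ssr3, HR minus HFD was -0.80 ± 0.21 (limma adjusted p = 0.556).

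In the list of the PERK and ATF4 arm, 16 of 17 genes were tested and 1, Asns, the asparagine synthetase gene and a target of ATF4, fell in HFD against SD. Asns ran from 0.17 to 3.78 in SD (mean 2.15 ± 1.42, n = 5) and from -1.88 to -0.10 in HFD (median -1.10, n = 6), and the groups did not overlap, as for 1.33% of all genes. HFD minus SD was -3.15 ± 0.52 (limma adjusted p = 0.00383), HQR minus SD was -2.71 ± 0.52 (limma adjusted p = 0.0432) and the mean of the 4 high-fat groups minus SD was -2.54 ± 0.42 (limma adjusted p = 0.00475). With the replicate number as a block, HQR minus SD had an adjusted p of 0.0807, and with the HFD and SD livers fitted alone HFD minus SD had 0.128. The list's median in HFD minus SD was -0.31, with 11 of 16 below 0. Ddit3 (CHOP) did not pass, with means of 0.67 ± 0.64 in SD and 0.29 ± 0.40 in HFD, and Atf4 averaged 0.50 ± 0.44 and 0.18 ± 0.34. Chac1, a target of this arm that degrades glutathione and was chosen after its values were seen, averaged 0.58 ± 0.84 in SD (n = 5) and 2.23 ± 0.78 in HFD (n = 6). HFD minus SD was 1.65 ± 0.46 (limma adjusted p = 0.290) and HQR minus SD was 1.43 ± 0.46 (limma adjusted p = 0.397) for Chac1, neither of which passed; 1 HQ liver without a value for it was left out of its fit.

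The arrays lay on 9 slides scanned on 4 days, with 59.3% to 82.1% of probes well above background, 75th percentiles of 173 to 557 signal units and no saturated spot. The number of arrays limits the precision: the 95% intervals of the 10 genes for HFD minus SD were widest for Xbp1 and narrowest for Edem1.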

How the data were processed

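Liver RNA of 28 mice was hybridised to one-colour Agilent arrays. The deposited scanner files hold spot intensity extracted with Agilent Feature Extraction, per the file headers, and the processed signal in them is background-subtracted. The value table holds the authors' normalised score per probe, whose scale and centring are unstated; it was used as an alternative after rescaling to log2. From the deposited intensity, log2 processed signals were averaged over spots of a probe without outlier flags and set against each array's 75th percentile. Probes well above background on at least 5 arrays were kept, and the probe with the highest mean stood for its gene. Names follow RefSeq where the accession or symbol matched. Groups came from the sample titles. One limma fit (version 3.58.1, R 4.3.3) over all arrays gave the comparisons, with Benjamini-Hochberg adjustment. Promoters came from RefSeq (GRCm38.p6), and probe positions are those of the files (mm9). The named genes are the 10, the list genes that pass in any comparison or, for a list where none passes, the 2 with the smallest F test p-values, and the 5 most similar genes; others are named after their values were seen. The 10 genes and the lists were chosen with earlier results of these data known. The fit was tested on simulated data. The sample titles name no pairing. As a check from the data, deviations of SD and HFD livers with the same replicate number were correlated in each of 5 pairs (0.22 to 0.70). In every other combination of groups the lowest correlation was negative. SD 1 and HFD 1 shared a slide, as did SD 2 and HFD 2, so pairing and shared slide cannot be told apart there. The probe counted for 7084 genes was 1 of several. Alternatives were quantile and median scaling, normexp (offset 50), other filters and probe rules, array weights, blocks for slide, scan day and replicate number, and leaving out arrays.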

Additional observations from a re-analysis of the deposited data

Results flagged for a closer look

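Of 50 sets of livers tested for a single high or low value (10 genes in 5 groups), 6 held one, where chance gives about 1 in 20 sets. The sets share livers and several of the genes are correlated, so they are not independent and the excess is not a test. Most of the 6 values came from SD 5. In SD 5, Hspa5 read 6.23 (others 4.88 to 5.21), Creld2 read 6.69 (others 4.68 to 4.88), Dnajb9 read 0.70 (others -0.47 to -0.25) and Edem1 read 3.76 (others 3.33 to 3.40). Sdf2l1 read 2.15 in HQR 3, where the other livers of the group lay between 0.22 and 0.75. Herpud1 read 6.09 in HFD 3, where the others lay between 5.28 and 5.51.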

How the results depend on the processing

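In each comparison and in the F test, the count of the 10 genes past the threshold was 0 under every alternative run, including the replicate block and leave-one-out, where the lowest and highest counts were both 0. Over 2950 alternative values of the 10 genes, 0 passed, the smallest adjusted p was 0.150, and 221 had the opposite sign to the reported value, which was not called. The replicate block ended 1 call named in the text, Asns in HQR minus SD, and no other. The 17 correlated pairs became 8 with slide means subtracted, 27 livers used and permutation within slides, 30 with scaling to the array median, 31 with normexp and 7 without SD 5, HR 1 and HR 2; leaving out 1 liver in turn gave 13 to 20, quantile normalization 18 and Spearman's rho 14. The cause was not tested. These alternatives for the pairs, other than slide means, were added after seeing the data. With normexp the median of all genes in HQ minus HFD was 0.24, against -0.0046 as reported. The number of genes called moved by over 1.5 times under some settings: in HFD minus SD from 25 to 81 with slide as a random block, and in HQR minus SD from 11 to 113 with array weights. The call of Asns for HQR minus SD held in 13 of 26 alternatives.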
